A study of Mus musculus with 6 samples.

Results

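Kinesins are motor proteins that walk along microtubules, and the family was read here as mitotic members set beside cargo transport members. Members were chosen by gene symbol, as Kif followed by a number with or without a final a, b or c, or as Kifc followed by a digit. The rule found 41 genes among the 55487 genes of the count table, of which 13 were classed as mitotic, 17 as transport, 6 as kinesins of cilia and centrioles and 5 as other. The libraries came from wild-type mouse ventricular cardiomyocytes, taken from pups at postnatal day 1 or 2 and passed through magnetic depletion with CD90 antibodies, a step meant to remove fibroblasts. Cells from these neonatal hearts were cultured for 12 h and then treated for 48 h with DMSO, with cyclopamine at 5 µg/ml (CyA in the labels) or with GANT61 at 3 µM (Gant61 in the labels). Cyclopamine inhibits Smoothened, the membrane protein through which Hedgehog ligands signal. GANT61 inhibits the GLI transcription factors that the pathway acts through. Their doses are given in different units, and no dose match is stated. The protocol also names SAG, which was not analysed here. The labels list 2 samples for each treatment, whereas the count table has 1 column for each, tied to no replicate number, and whether a column is a pool is not given in the sources used here. No comparison between single columns therefore has a replicate check, and no p-value is given for one.

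A kinesin couples ATP hydrolysis in its motor domain to movement along a microtubule, and its tail selects what it carries or holds. Mitotic kinesins push spindle poles apart, move and align chromosomes, trim microtubule ends and build the central spindle at which daughter cells separate, and many of them are made mainly in late S phase, G2 and mitosis. Transport kinesins carry mitochondria, vesicles and messenger RNA in cells whether or not they divide. Cardiomyocytes of the mouse leave the cell cycle in the days after birth, so a neonatal culture can hold both dividing and non-dividing cells.

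A sequence feature that the symbol rule did not use was read in the promoter windows of RefSeq (build GRCm38.p6), which run from 250 bases before to 50 bases after a transcript start and were at hand for 32 of the 41 members. The first motif was the cell cycle genes homology region (CHR), TTTGAA or TTCGAA on either strand, through which the DREAM and MuvB complexes are known to time late cell cycle genes. It was present in 10 of 12 mitotic windows and in 1 of 11 transport windows, against 21.7% of 27025 genes. The second was the CCAAT box of the factor NF-Y, searched on both strands, present in 8 of 12 mitotic and 3 of 11 transport members against 41.1% of all genes. The last, an E2F site written TTTGGCGC, TTTGGCGG or TTTCCCGC on either strand, was present in 2 mitotic members, Kif15 and Kif18a, and in 0 transport members, against 2.39% of all genes. The motifs were chosen with the counts known, and a match describes letters, not binding. The lines that follow show, 5′ to 3′, the 60 bases before and 25 bases after the start for 6 mitotic members that hold the CHR motif near it, then for Kif18a, the member with the smallest difference, and then for 4 transport members, with CHR and CCAAT matches in capitals.
Kif11 (chr19:37376322-37376406, plus strand): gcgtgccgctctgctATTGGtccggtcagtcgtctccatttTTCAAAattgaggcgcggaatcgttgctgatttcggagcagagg
Kif22 (chr7:127042396-127042480, minus strand): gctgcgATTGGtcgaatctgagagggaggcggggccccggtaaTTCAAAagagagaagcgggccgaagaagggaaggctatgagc
Kif15 (chr9:122951021-122951105, plus strand): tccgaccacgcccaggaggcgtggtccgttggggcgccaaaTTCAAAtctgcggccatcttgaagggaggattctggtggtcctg
Kif23 (chr9:61946775-61946859, minus strand): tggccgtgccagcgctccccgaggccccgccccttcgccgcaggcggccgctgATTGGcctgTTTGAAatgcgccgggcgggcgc
Kif18b (chr11:102925100-102925184, minus strand): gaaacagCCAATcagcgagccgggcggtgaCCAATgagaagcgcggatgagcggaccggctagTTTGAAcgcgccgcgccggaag
Kif4 (chrX:100626005-100626089, plus strand): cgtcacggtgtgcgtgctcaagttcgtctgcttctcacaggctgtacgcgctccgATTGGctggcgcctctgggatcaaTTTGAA
Kif18a (chr2:109280678-109280762, plus strand): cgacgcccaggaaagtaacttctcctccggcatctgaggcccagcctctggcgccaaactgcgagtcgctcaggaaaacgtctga
Kif1a (chr1:93101850-93101934, minus strand): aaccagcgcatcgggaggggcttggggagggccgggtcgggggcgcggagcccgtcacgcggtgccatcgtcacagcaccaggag
Kif1c (chr11:70700488-70700572, plus strand): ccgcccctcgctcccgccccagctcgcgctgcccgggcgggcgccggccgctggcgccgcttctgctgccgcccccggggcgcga
Kif3a (chr11:53567309-53567393, plus strand): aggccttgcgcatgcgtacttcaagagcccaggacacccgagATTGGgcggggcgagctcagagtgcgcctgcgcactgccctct
Kif3b (chr2:153291356-153291440, plus strand): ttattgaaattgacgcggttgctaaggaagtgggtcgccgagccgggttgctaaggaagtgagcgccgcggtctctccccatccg
The CHR match began at 19 bases before the start in Kif11 and Kif15, at 17 before it in Kif22, and at bases 3, 4 and 20 of the transcript in Kif23, Kif18b and Kif4. The mitotic members without it were Kif18a and Kif2b. The transport member with it was Kif1a, in the other of its 2 annotated windows and not in the window printed here.

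**Figure D1:**
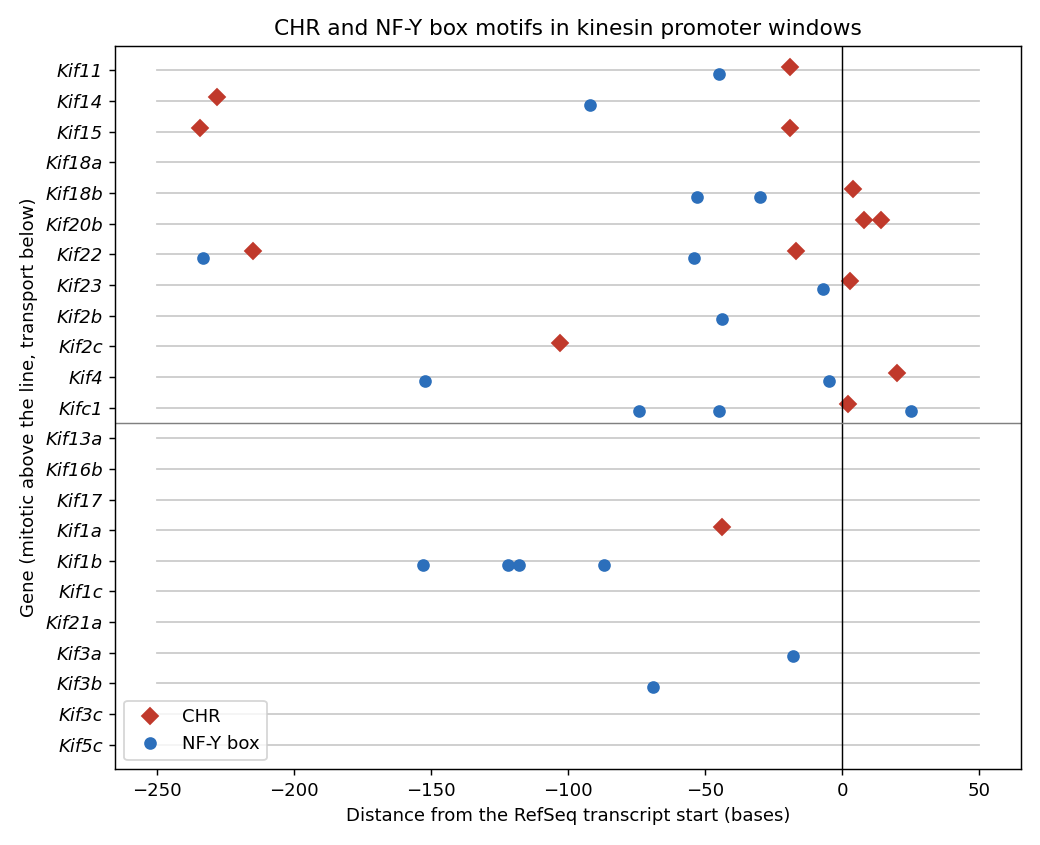
Positions of CHR (diamonds) and NF-Y box (circles) matches along the RefSeq promoter windows of 12 mitotic and 11 transport kinesins; the horizontal axis is the distance in bases from the transcript start and each grey line is a gene, with all of its windows laid over each other. CHR matches lie in 10 mitotic genes, mostly close to the start, and in 1 transport gene.

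Total counts were 36661845 in the DMSO library, 38966515 with cyclopamine and 35461530 with GANT61, and 15576 genes passed the expression filter. The labelled cell type was present: 12 cardiomyocyte markers, among them Tnnt2, Myh6 and Actc1, summed to 69900, 67000 and 59200 CPM (normalised counts scaled to the library total) in DMSO, cyclopamine and GANT61. The words higher or lower by size mark a difference of 1.5-fold or more in normalised count whose exact 95% counting interval, printed in parentheses after a log2 fold change, leaves out 0. These intervals cover counting error only and not the spread between cultures. The median log2 fold change over all filtered genes was -0.004 for cyclopamine and -0.007 for GANT61 against DMSO. The scaling over these same genes sets it near 0. A kinesin's log2 value is thus relative to the bulk of filtered genes and does not give a change in absolute level.

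Most kinesin messenger RNA belonged to transport members. Per exon length, as TPM (length-scaled transcript abundance), the highest level in DMSO was that of Kif5b, the broadly expressed conventional kinesin, at 277 TPM, followed by the vesicle motor Kif1c at 239 TPM. Kif13a, a motor of recycling endosomes, was at 60.4 TPM and Kif1b, which carries mitochondria and vesicle precursors, at 56.7 TPM. The highest mitotic member was Kif20a, at 25 TPM, and the other mitotic members with counts lay between 1.12 TPM (Kif18a) and 9.9 TPM (Kifc1). The 10 members highest in DMSO were the same 10 when the longest transcript replaced the exon length. All kinesins together summed to 898 TPM with DMSO, 856 with cyclopamine and 966 with GANT61. Mitotic members made up 6.26% of all kinesin counts in DMSO (exact binomial interval 6.1 to 6.42), 2.13% in cyclopamine (2.04 to 2.23) and 1.42% in GANT61 (1.34 to 1.5). Transport members made up 89.2%, 93.7% and 95.1%. By TPM the mitotic shares were 9.44%, 3.27% and 2.23%, and the transport shares 86.6%, 93% and 94.4%. The binomial intervals cover counting error only. Of the 41 members, 35 passed the filter. Kif2b, a spindle depolymerase, and Kif12 had 0 counts in every library, which allows up to 3 counts each. Kif17, a dendritic and ciliary motor, had 6, 3 and 1 counts, Kif27 had 7, 2 and 4, Kif28 had 2, 1 and 1, and Kif19a had 1, 1 and 0 counts in DMSO, cyclopamine and GANT61. None of these 6 could be compared at this depth.

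**Figure D2:**
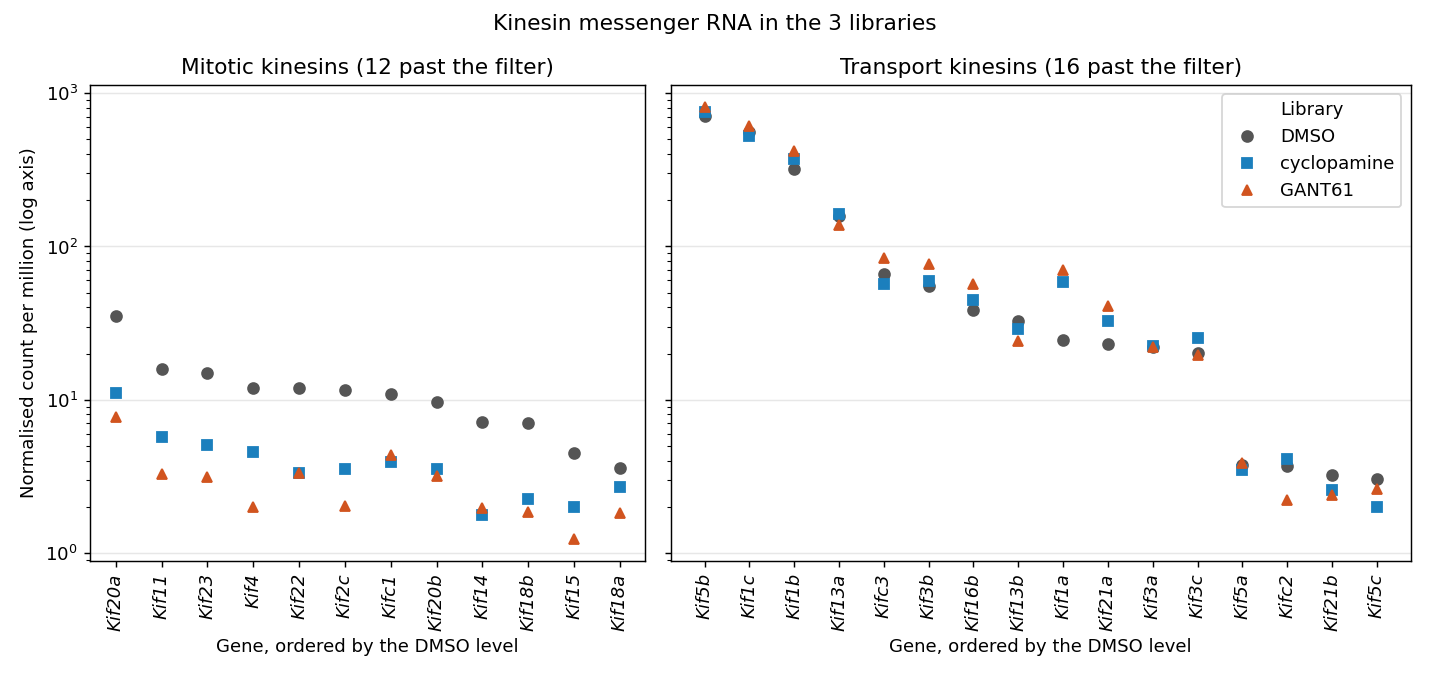
CPM (log axis) of the 12 mitotic and 16 transport kinesins past the filter in the DMSO (circles), cyclopamine (squares) and GANT61 (triangles) libraries, 1 library each, without error bars. In each mitotic gene the DMSO library is the highest, from 3.56 (Kif18a) to 35 (Kif20a), whereas among transport genes the libraries lie close together except in a few genes such as Kif1a.

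Mitotic kinesins stood lower in the cyclopamine library than in DMSO. Of the 12 mitotic members past the filter, 11 were lower by size and 0 higher, with a median log2 fold change of -1.52, or 2.87-fold lower; of all filtered genes 7.34% were lower by size and 4.15% higher. In GANT61 all 12 were lower by size and 0 higher, with a median of -1.90, or 3.74-fold lower, where 13.4% of all filtered genes were lower and 8.47% higher. Both comparisons use the same DMSO library. In a culture measured in bulk, fewer dividing cells and less of these messengers per cell cannot be told apart.

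Among the motors that build the spindle, Kif11 (chromosome 19, 37376403 to 37421859, GRCm38), the kinesin-5 that slides antiparallel microtubules apart, had 580 counts in the DMSO library, 219 in the cyclopamine library and 117 in the GANT61 library. DMSO was the highest and GANT61 the lowest library. Its log2 fold changes against DMSO were -1.47 (-1.70 to -1.24) and -2.27 (-2.57 to -1.98). Kif15, a kinesin-12 that can hold spindle poles apart beside Kif11, had 164, 76 and 44 counts in the same order, at -1.17 (-1.58 to -0.77) and -1.86 (-2.37 to -1.37). Kifc1, the minus-end motor that gathers microtubules at spindle poles, had 401, 151 and 155 counts, so that here the inhibitor libraries lay side by side. It was at -1.47 and -1.33, but 47.6% of the 50-base windows of its transcript also occur in other annotated genes, chiefly its copy Kifc5b, so its level is uncertain. Kifc5b, which is outside the symbol rule, had 175, 77 and 68 counts.

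Motors of chromosomes and kinetochores included the lowest values in GANT61. Kif2c (chromosome 4, 117159639 to 117182639), a kinesin-13 that takes microtubules apart at kinetochores and corrects wrong attachments, had 425 counts with DMSO, 135 with cyclopamine and 72 with GANT61. Every step in that order was downward, with log2 fold changes against DMSO of -1.72 (-2.01 to -1.43) and -2.52 (-2.90 to -2.16). Kif4 (chromosome X, 100625737 to 100727214), a chromokinesin of chromosome condensation and the central spindle, had 437, 174 and 71 counts. It was at -1.39 (-1.65 to -1.13) in cyclopamine and at -2.58 (-2.96 to -2.22) in GANT61, the lowest value of any kinesin in that library. Of its exon bases 15.1% lie on the other strand of Pdzd11. Kif22, a chromokinesin that pushes chromosome arms outward, had 439, 128 and 119 counts and was at -1.84 in both inhibitor libraries. Kif18b, which trims astral microtubules, had 259, 86 and 66 counts, at -1.65 and -1.93.

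Kif18a (chromosome 2, 109280738 to 109341747), the kinesin-8 that steadies chromosomes at the metaphase plate, was the mitotic member that differed least. Its counts were 131 with DMSO, 103 with cyclopamine and 65 with GANT61. In cyclopamine it was at -0.41 (-0.80 to -0.02), short of 1.5-fold, and in GANT61 at -0.97 (-1.42 to -0.53). Of the 11 mitotic members past the filter with a promoter window, it was also the 1 with no CHR match over the whole searched window, of which the printed sequence is the inner stretch; a single gene gives no relation between motif and difference.

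Motors of the central spindle and of cytokinesis were lower in the same way. Kif20a, a kinesin-6 that brings the chromosomal passenger complex to the central spindle, had 1287 counts with DMSO, 424 with cyclopamine and 275 with GANT61. It is the deepest mitotic member, at -1.66 (-1.83 to -1.50) and -2.19 (-2.38 to -2.0). Of its exon bases 29.3% lie opposite exons of Cdc23, a gene that had 1698, 1906 and 2087 counts and so did not follow it. Kif23 (chromosome 9, 61915905 to 61946774), the motor subunit of centralspindlin, had 551, 193 and 112 counts, at -1.57 and -2.26. Kif20b, a midzone motor of late cytokinesis, had 356, 135 and 114 counts, at -1.46 and -1.60. Kif14 (chromosome 1, 136466343 to 136531511), which recruits citron kinase to the midbody, had 264, 68 and 70 counts. Its value of -2.02 (-2.42 to -1.63) was the lowest of any kinesin in cyclopamine, and in GANT61 it was at -1.87 (-2.28 to -1.49). Leaving out Kif20a, Kif4 and Kifc1, the mitotic members that share at least 15% of their exon bases or transcript windows with another gene, 8 of 9 were lower by size in cyclopamine and 9 of 9 in GANT61.

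**Figure D3:**
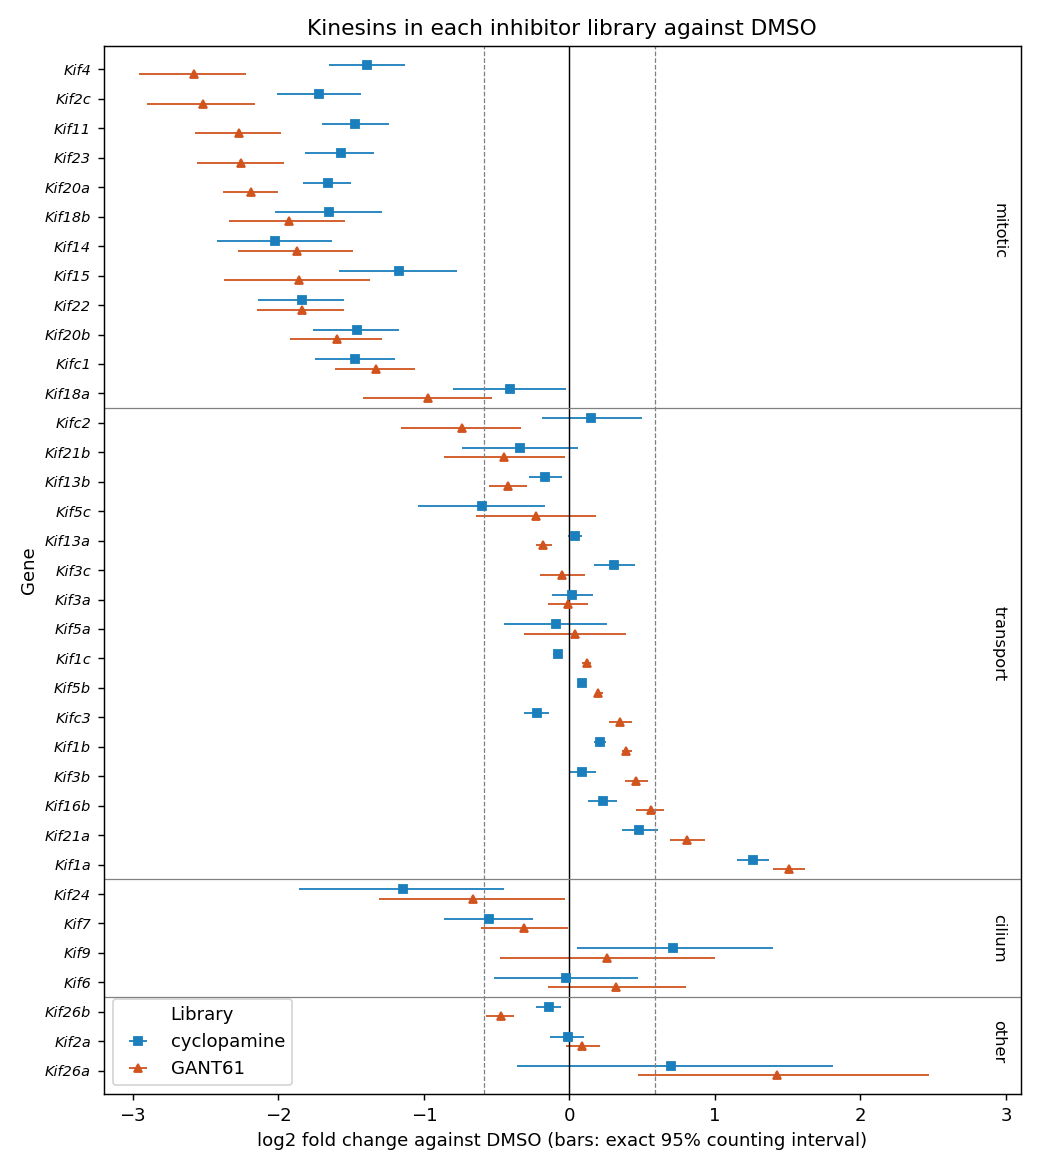
Log2 fold change against DMSO of the 35 kinesins past the filter in cyclopamine (squares) and GANT61 (triangles), grouped by class, with bars for the exact 95% counting interval and dashed lines at 1.5-fold. The mitotic members lie left of 0, down to -2.58 for Kif4, and the transport members scatter around 0, with Kif1a furthest to the right at 1.26 and 1.51.

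Transport kinesins as a class stood near 0. Of 16 past the filter, 1 was higher and 1 lower by size in cyclopamine (median log2 fold change 0.06), and 2 were higher and 1 lower in GANT61 (median 0.08). With 16 genes, the shares of all filtered genes given above would come to about as few in each direction. The deepest members differed little. Kif5b had 26258 counts with DMSO, 29165 with cyclopamine and 29352 with GANT61, at 0.09 (0.07 to 0.11) and 0.20 (0.18 to 0.23). Kif1c had 20657, 20364 and 21793 counts, at -0.08 and 0.12, so that its sign differed between the inhibitor libraries. Kif13a had 5797, 6216 and 4992 counts, at 0.04 and -0.18. Kif1b was slightly higher in both, with 11846, 14298 and 15120 counts, at 0.21 and 0.39. The pair of kinesin-2 motors that also power anterograde transport in cilia gave different values. Kif3a had 818, 863 and 790 counts, at 0.02 and -0.01. Kif3b had 2042, 2271 and 2734 counts, at 0.09 (0.00 to 0.18) and 0.46 (0.38 to 0.54), so that only its GANT61 library stood clear of DMSO.

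Kif1a (chromosome 1, 93015464 to 93101951), a kinesin-3 known for carrying synaptic vesicle precursors in neurons, was the transport member that stood apart. Its counts were 900 with DMSO, 2250 with cyclopamine and 2498 with GANT61, and both inhibitor libraries lay well above DMSO. These are log2 fold changes of 1.26 (1.15 to 1.37) and 1.51 (1.40 to 1.62), or 2.40-fold and 2.85-fold higher. Per length it went from 8.13 TPM to 19.2 and 23.6 TPM. Of 11 markers of neurons and glia, Tubb3 made up most of the summed level of 29.4 CPM in DMSO, 25.9 in cyclopamine and 14.4 in GANT61, itself at 22.8, 20.8 and 9.64 CPM. Among the 6 past the filter, 1 was higher by size in cyclopamine, Elavl4, with 1, 16 and 5 counts, and 2 were lower, Map2 and S100b. Elavl4, at 0.0272, 0.417 and 0.14 CPM, passed the filter through its cyclopamine library alone. Its call there was thus favoured by the filter and is no evidence of a difference. In GANT61 0 were higher and 3 lower, Map2, S100b and Tubb3. The share of the whole filtered set called lower was 7.34% for cyclopamine and 13.4% for GANT61. The share called higher was 4.15% and 8.47%. Of the neuron and glia markers not past the filter, Snap25 had 0 counts in each library, Prph had 0, 2 and 6 and Stmn2 had 0, 5 and 1. The part of such cells in the Kif1a difference was not tested.

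Kif21a, a kinesin-4 that limits microtubule growth, had 852 counts with DMSO, 1244 with cyclopamine and 1452 with GANT61. It was at 0.48 (0.36 to 0.61) in cyclopamine, short of 1.5-fold, and at 0.81 (0.69 to 0.93) and higher by size in GANT61. Kif16b, an early endosome motor, had 1416, 1730 and 2024 counts, at 0.23 and 0.56, which stayed under the threshold in both. The members lower by size were shallow. Kif5c, a conventional kinesin enriched in neurons, had 112, 77 and 93 counts and was lower by size in cyclopamine at -0.60 (-1.04 to -0.17). Kifc2, a minus-end motor of neurons, had 136, 158 and 79 counts and was lower by size in GANT61 at -0.74 (-1.16 to -0.33). Kif5a, the neuronal conventional kinesin, had 137, 134 and 137 counts. The remaining transport members, Kif13b, Kif21b, Kif3c and Kifc3, lay between -0.45 and 0.35 against DMSO in both libraries, and 40.7% of the exon bases of Kif3c and 27.5% of those of Kifc3 lie opposite other genes.

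Kinesins of cilia and centrioles included Kif7 (chromosome 7, 79698098 to 79715720), which sits at the ciliary tip and governs GLI processing in the pathway that both compounds target. Kif7 had 218 counts with DMSO, 155 with cyclopamine and 171 with GANT61. DMSO was the highest library, but at -0.55 (-0.86 to -0.25) and -0.31 (-0.61 to -0.01) neither value reached 1.5-fold, and 20.3% of its exon bases lie opposite other genes, Ticrr among them. Kif24, a centriolar kinesin that holds back cilium assembly in dividing cells, had 57, 27 and 35 counts and was lower by size in both, at -1.14 (-1.86 to -0.45) and -0.66 (-1.31 to -0.03). Kif9, a kinesin of motile cilia, had 31, 53 and 36 counts and was higher by size in cyclopamine at 0.71 (0.05 to 1.40). Kif6, also of motile cilia, had 70, 72 and 85 counts, at -0.02 and 0.32, with intervals on both sides of 0. Among the others, Kif2a, a kinesin-13 used both at spindle poles and in neurons, had 1204, 1246 and 1249 counts, at -0.01 and 0.09, unlike its mitotic relative Kif2c. Kif2a was left out of the mitotic class, so that all mitotic members were lower in GANT61 depends on this choice. Kif26b, an atypical kinesin, had 2231, 2108 and 1565 counts, at -0.14 and -0.47. Kif26a, its relative, had 13, 22 and 34 counts and was higher by size in GANT61 at 1.43 (0.47 to 2.47).

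The inhibitor libraries were next set directly against each other, at doses with no stated match. GANT61 was lower than cyclopamine by size in 5 of 12 mitotic kinesins and higher in 0, with a median of -0.54, against 8.95% and 6.27% of all filtered genes. The largest difference was that of Kif4, at -1.19 (-1.61 to -0.79), 2.28-fold lower in GANT61. Kif2c was at -0.81 (-1.24 to -0.38), Kif11 at -0.80 (-1.14 to -0.47), Kif15 at -0.69 (-1.26 to -0.13) and Kif23 at -0.68 (-1.03 to -0.34). Kif18a, at -0.56 (-1.03 to -0.10), and Kif20a, at -0.52 (-0.75 to -0.30), were lower with intervals clear of 0 and did not reach 1.5-fold. Kif22 was at 0.00 (-0.38 to 0.37), Kif14 at 0.14 (-0.36 to 0.65) and Kifc1 at 0.14 (-0.19 to 0.47). Kif20b was at -0.14 (-0.51 to 0.23) and Kif18b at -0.28 (-0.77 to 0.20). The intervals of Kif22, Kif14, Kifc1, Kif20b and Kif18b leave room for a difference in either direction. Of the chromokinesins, Kif4 was thus lower by size and Kif22 level in counts. Of the 16 transport members, 0 were higher and 1, Kifc2, lower by size, at -0.90 (-1.31 to -0.50). Kifc3, a motor of vesicles and cell junctions, was at 0.57 (0.49 to 0.65), just under the threshold.

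**Figure D4:**
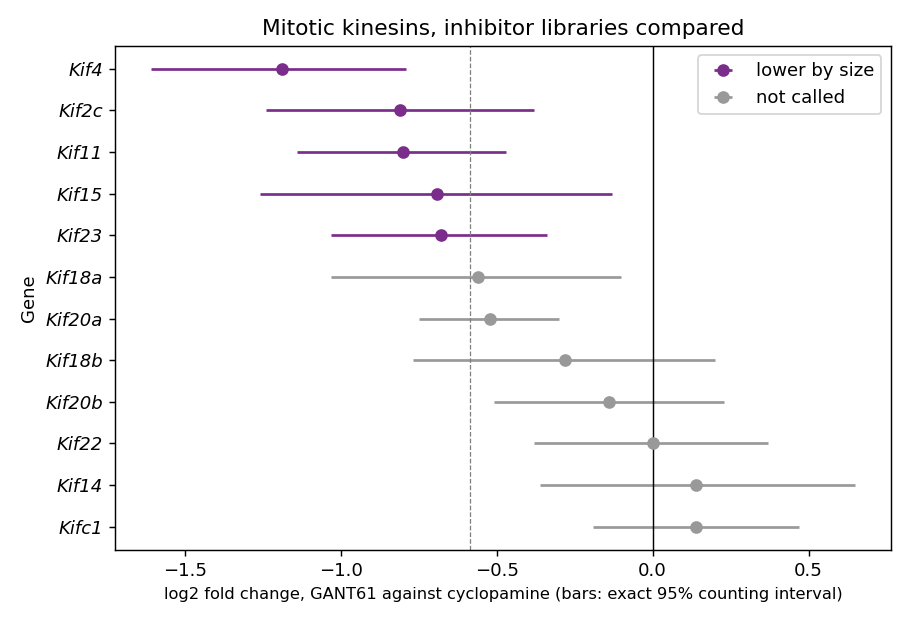
Log2 fold change of GANT61 against cyclopamine for the 12 mitotic kinesins past the filter, with bars for the exact 95% counting interval and a dashed line at 1.5-fold lower. Kif4 lies furthest to the left at -1.19, and Kif22, Kif14 and Kifc1 lie at 0.00, 0.14 and 0.14.

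To set the differences against a spread between libraries, both inhibitor libraries were taken as a single arm against DMSO in edgeR's quasi-likelihood test, in which the difference between the inhibitor libraries counts as error. No gene of 15576 had an adjusted p under 0.05 (0% of genes), so 0 of 12 mitotic and 0 of 16 transport kinesins did. At an unadjusted p under 0.05 edgeR counted 977 genes, among them 11 mitotic and 2 transport kinesins, the transport members being Kif1a and Kif21a. Kif20a came nearest, at a log2 fold change of -1.90 ± 0.26 (SE) with an edgeR adjusted p of 0.102, and Kif1a was at 1.39 ± 0.21 with an edgeR adjusted p of 0.116. Kif4, whose inhibitor libraries differed most, was at -1.86 ± 0.47 with an edgeR adjusted p of 0.413. limma-voom also called 0 genes (1063 at an unadjusted p under 0.05). DESeq2's Wald test called 142 genes (1.13% of those it tested, 0.637% lower and 0.494% higher), and these included 6 mitotic kinesins, Kif20a, Kif11, Kif2c, Kif22, Kif23 and Kif14, all lower, and the transport member Kif1a, higher. Without a filter on low counts edgeR itself called 482 of 22450 genes (2.15%, with 1.27% lower and 0.882% higher), 11 mitotic kinesins lower and 1 transport kinesin higher. Scaled by library size only, edgeR called 0.0578% of genes lower and 0.0578% higher, with 1 mitotic kinesin lower. The call thus turns on the tool, the filter and the scaling. All 12 mitotic values were below 0, but they share the same DMSO library and are not replicates of each other. The authors' deposited tables carry a 1.2-fold threshold in their titles, looser than those used above, and their lengths can be read against the 22450 genes with any count. The authors' deposited table of lower genes, with 6461 rows, lists all 12 mitotic kinesins with counts and 4 transport kinesins, Kif13b, Kif17, Kif21b and Kif5c. The authors' deposited table of higher genes, with 6612 rows, lists 0 mitotic and 5 transport kinesins, Kif16b, Kif1a, Kif1b, Kif21a and Kif3b. With 17 transport members, the lengths of these deposited tables would come to about as many in each direction.

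Genes that work with kinesins followed the same division. Of 16 partners of mitotic kinesins, all were lower by size in cyclopamine (median -1.36) and all in GANT61 (median -1.95). Of all filtered genes, 7.34% and 13.4% were lower by size in these comparisons. The list was drawn up with earlier results of these data known. It includes Cenpe and Kifc5b, which are kinesins themselves, and Kifc5b shares sequence with Kifc1, so those counts are not separate from it. Birc5, the survivin subunit of the passenger complex that Kif20a relocates, had 540, 152 and 86 counts, at -1.89 and -2.61. Plk1, a kinase that docks on Kif20a, was at -1.87 and -2.55, Prc1, the microtubule bundler that Kif4 carries to the midzone, at -1.69 and -2.55, and Cdca8, another passenger subunit, at -2.02 and -2.43. Cenpe, the kinetochore kinesin that the symbol rule does not catch, had 561, 249 and 134 counts and was at -1.23 and -2.03. Cit, the citron kinase gene whose protein binds Kif14, had 137, 73 and 33 counts. In GANT61 against cyclopamine Cit was at -1.04 (-1.68 to -0.43). Kif14 was at 0.14 (-0.36 to 0.65) there, an interval with room for either direction.

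On the transport side the counts by size were near or under the shares of all filtered genes, 11.5% in cyclopamine and 21.9% in GANT61 in either direction. Of 20 measured light chains, adaptors and cargo linkers, 0 were higher and 0 lower by size in cyclopamine (median 0.00), and 2 were higher and 2 lower in GANT61 (median 0.04). Arl8a, a small GTPase that links lysosomes to kinesin-1, had 916, 1265 and 1888 counts, at 0.40 and 1.08. Klc4, a kinesin light chain, was at -0.37 and -0.48, Plekhm2, the adaptor between Arl8 and kinesin-1, at 0.11 and 0.38, and Kifbp, which binds kinesin motor domains, at -0.18 and -0.34. Of 24 measured genes of cytoplasmic dynein and dynactin, the machinery of transport in the opposite direction, 0 were higher and 1 lower in cyclopamine (median 0.07) and 1 higher and 0 lower in GANT61 (median 0.06). The dynein heavy chain gene Dync1h1 had 16840, 21697 and 23193 counts, at 0.30 and 0.50, Ndel1 and Dctn4 were at 0.44 and 0.40 in GANT61, and the light chain gene Dynlt1b was higher by size there at 0.76.

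Markers of proliferation were lower along with the mitotic kinesins. The 7 on the list summed to 250 CPM with DMSO, 101 with cyclopamine and 72.1 with GANT61. Of these markers 6 and 7 were lower by size, against 7.34% and 13.4% of all filtered genes. Cdk1 is in this list and also in that of the mitotic partners. Which cells carried these markers was not measured. Counts of markers of other cell types are to be read against the 11.5% and 21.9% of all filtered genes that differed by size in either direction. Of the fibroblast markers, which summed to 1400, 1070 and 950 CPM, 1 of 9 was higher and 1 lower by size in cyclopamine, while GANT61 had 1 higher and 3 lower. The sum was mostly Col1a1, at 595, 427 and 367 CPM, and Col1a2, at 418, 310 and 273 CPM, both lower by size in GANT61 only. Dcn was the higher marker in both, with 229, 411 and 460 counts, and Col3a1 the lower in cyclopamine. The list thus had no common direction. Thy1, the gene for CD90 itself, was among the lower in GANT61, with 3050, 2834 and 1207 counts, so messenger RNA of the depletion target was present in every library. The smooth muscle and pericyte markers summed to 2650, 1680 and 1590 CPM, with 2 of the 6 past the filter lower in each inhibitor library. These were Acta2, at 1570, 943 and 969 CPM, and Cnn1, at 291, 82.9 and 42.8 CPM. Myh11, with 21, 25 and 18 counts, and Pdgfrb, at 29.2, 29.5 and 25.6 CPM, were not called. The endothelial markers summed to 115, 113 and 96.9 CPM, with 1 and then 2 of 8 lower. Epicardial and mesothelial markers went the other way, with 3 and 6 of 7 higher by size and a median log2 fold change of 0.47 in cyclopamine and 2.61 in GANT61. Their sum of 85.8, 107 and 150 CPM was mostly Tbx18, at 74.7, 91 and 91.1 CPM, whereas Upk1b had 53, 117 and 397 counts and Msln 131, 213 and 579. Macrophage and leukocyte markers summed to at most 15.6 CPM in any library. No marker of these 5 lists was at 0 in every library, though the pericyte marker Rgs5 had 2, 0 and 6 counts and the macrophage marker C1qb 2, 0 and 1, and the part of these cells in the kinesin differences was not tested.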

How the data were processed

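Messenger RNA was sequenced from stranded libraries, per the labels' protocols. The submitters' processing notes name HISAT2 2.1.0, featureCounts, Trimmomatic 0.33, FastQC and build GRCm38, with no roles. The annotation, the strand setting and any pooling are not given in these sources, so overlapping genes can share reads. The authors deposited raw counts for each gene in 3 columns, 1 for each treatment.

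Counts were kept by filterByExpr and scaled by TMM in edgeR 4.0.16. Log2 fold changes are ratios of scaled counts with exact conditional binomial intervals, and a count of 0 was set to a floor of 3. The test of both inhibitors was edgeR's quasi-likelihood test (robust prior), with p-values adjusted by Benjamini-Hochberg over all filtered genes. Its standard error is the log2 fold change divided by the square root of F. Its error comes from the spread between the inhibitor libraries, drawn in part from a trend over all filtered genes. Its p-values do not measure the spread between cultures. DESeq2 1.42.0 and limma 3.58.1 were alternatives. The size rule and the edgeR test were run on counts simulated from the levels in these libraries. The simulated noise was counting noise or the fitted spread, so this cannot check the spread between cultures. TPM used exon lengths from GENCODE release M21, matched for 55227 of 55487 gene IDs. All members may be named; of the gene lists, the 4 members with the largest fold in GANT61 at 5 CPM or more were named, and Cenpe, Cit, Kifc5b and Cdc23 were chosen after their values were seen. The members, lists, motifs and rules were chosen with earlier results of these data known.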

Additional observations from a re-analysis of the deposited data

How the results depend on the processing

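No paired analysis was possible because the count columns carry no replicate number, and leaving out a replicate was not possible with 1 column for each treatment. The counts of mitotic kinesins lower by size stayed within 1.5 times with DESeq2 size factors, library size with or without mitochondrially encoded genes, no filter, a 1.2-fold threshold and, against DMSO, a 2-fold threshold. When 5 CPM or more was required in 2 libraries, only 2 mitotic members remained, by construction, and 2 were lower in cyclopamine, 2 in GANT61 and 1 in GANT61 against cyclopamine; transport members lower by size numbered 0 in each of the 3 comparisons. With a 2-fold threshold, 0 transport members were lower in each comparison, 1 was higher in GANT61, and 1 mitotic member, Kif4, was lower in GANT61 against cyclopamine. With a 1.2-fold threshold, transport members higher numbered 3 in cyclopamine, 6 in GANT61 and 4 between the inhibitors, and those lower 3 in GANT61 and 2 between the inhibitors. With library size only, 1 transport member was higher in GANT61 than in cyclopamine. For both inhibitors against DMSO, mitotic members lower numbered 6 with DESeq2, 1 with library size only and 11 without a filter, and transport members higher 1 with DESeq2 and 1 without a filter; the cause was not tested. Leaving out members that share bases with other genes, an alternative chosen after seeing the data, left every size count within 1.5 times. Depth limits the members below about 100 counts, such as Kif24, Kif9 and Kif26a, whose intervals are wide.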
